A study of Penicillium oxalicum with 6 samples.

Results

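A set of 34 genes of the filamentous fungus Penicillium oxalicum was close to silent in the parental strain and transcribed in every library of the silenced strain. The genes were selected by their level in FPKM, fragments scaled by transcript length and by the mapped fragments of the library. A gene belonged to the set when it lay below 1 FPKM in each of 3 parental libraries and at 3 FPKM or more in each of 3 silenced libraries. The 34 genes are 0.346% of the 9822 locus tags in the files and 2.73% of the 1244 tags that lay below 1 FPKM in each parental library. The 34 genes and the 1244 tags leave out 2 blocks of neighbouring tags on chromosome III, in which 4 further tags met both limits. The 9822 locus tags include these blocks. The limits themselves fix the difference between the strains, so the levels of the 34 genes are described here without a test.

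Mycelium carrying a silenced POc04478, to which 5 μM of copper ions had been added, gave the silenced libraries, and the series title places that strain in the △PoxKu70 background. The parental libraries, titled PoxKu70, came from the strain without that silencing. Their genotype field reads WT, while the series title names the deletion of PoxKu70, a gene of non-homologous end joining that is often removed in fungi to favour targeted integration. Whether the parental cultures received copper is not stated, so silencing and copper cannot be told apart. Spores of both strains were grown for 24 h in glucose medium and the mycelium was then kept for 24 h in enzyme-production medium. The protocol gives Avicel, a microcrystalline cellulose, as the carbon source, whereas the treatment field gives raw starch. The labels state neither the number of independent cultures nor of transformants, so the spread between libraries may be partly technical.

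Filamentous fungi keep many genes untranscribed under any given growth condition. Genes for specialised metabolites and for the use of particular nutrients are common among such conditional genes, and those of one pathway often lie side by side on a chromosome and are transcribed together. Neither the files nor the gene table gives a product name for any of the 34 genes, so none is assigned a function. No defining markers of mycelium could be checked for the same reason. In whole mycelium, fewer cells that transcribe a gene and less RNA per cell cannot be told apart.

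The targeted gene, POX_c04478, had 15.9, 17.8 and 19.0 FPKM in the silenced libraries, against 159, 116 and 131 FPKM in the parental libraries. The groups did not overlap, and the silenced mean was 13% of the parental mean. On the log2(FPKM + 1) scale the difference was -2.87 ± 0.15 (SE), at an adjusted p of 0.00012 by limma. A two-sided exact permutation test of the 6 values gave p = 0.1, below which 3 against 3 libraries cannot go. All 6 libraries listed the same 10899 IDs, of which 9737 to 9937 were above 0. The number of fragments is unknown, so no counting error can be given for low values.

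Most of the switched-on genes reached a low level. Their mean silenced level had a median of 7.79 FPKM, a range of 3.23 to 222 FPKM and quartiles of 5.93 and 11.6 FPKM. Their median in single libraries was 6.68, 8.22 and 8.98 FPKM in silenced replicates 1, 2 and 3, against 0.225, 0.225 and 0.41 FPKM in parental replicates 1, 2 and 3. By mean silenced level, 6 genes lay between 3 and 5 FPKM, 14 between 5 and 10, 8 between 10 and 20, and 6 at 20 FPKM or more. Most of the set thus lay between 5 and 20 FPKM in the silenced strain.

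**Figure D1:**
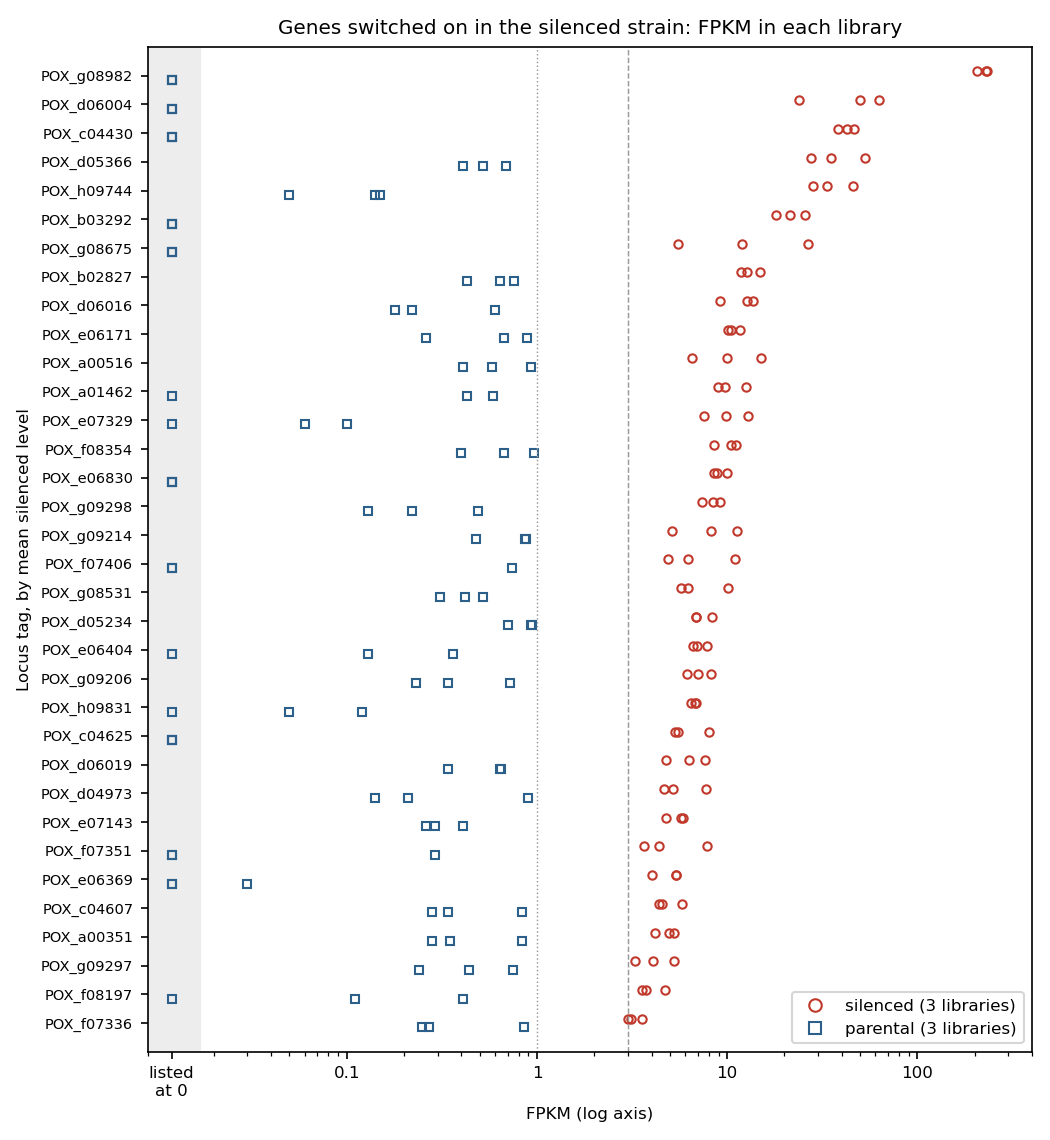
FPKM (log axis) of the 34 switched-on genes in each of 3 silenced libraries (circles) and 3 parental libraries (squares), ordered by mean silenced level; the grey band holds values listed at 0, and the dotted and dashed lines mark the limits of 1 and 3 FPKM. POX_g08982 stands far to the right of all others, and 7 genes have all their parental squares in the grey band.

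POX_g08982, on chromosome VII, was the most strongly transcribed of the set. It stood at 231, 205 and 229 FPKM in the silenced libraries, against 0 in each parental library. This level placed it at rank 948 among the 9822 locus tags by mean silenced FPKM. The 3 silenced values lay close together, with a coefficient of variation (CV, the SD as a share of the mean) of 6.66%. No fold is given for a gene listed at 0, because 0 has no known counting limit in these files.

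The next level was held by POX_d06004 on chromosome IV and POX_c04430 on chromosome III, both listed at 0 in each parental library. POX_d06004 had 62.4, 49.9 and 23.8 FPKM in silenced replicates 1, 2 and 3, so its values ranged 2.62-fold within the group. POX_c04430 had 46.2, 42.7 and 38.2 FPKM in the same libraries, a far tighter set with a CV of 9.51%. The means of these genes, 45.4 and 42.4 FPKM, differ by less than the SD between libraries of POX_d06004, 19.7 FPKM.

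POX_d05366 on chromosome IV and POX_h09744 on chromosome VIII followed, and both were detected in every library. For POX_d05366 the values were 27.7, 35.1 and 52.8 FPKM in the silenced libraries, against 0.41, 0.52 and 0.69 FPKM in the parental libraries, a 71.3-fold ratio of means. For POX_h09744 they were 28.3, 33.5 and 46.1 FPKM in the silenced libraries, against 0.05, 0.15 and 0.14 FPKM in the parental libraries. Its ratio of means, 317-fold, was the highest among the 19 switched-on genes that were above 0 in all parental libraries. In both genes silenced replicate 3 was the highest and replicate 1 the lowest.

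POX_b03292, on chromosome II, was the last of the 6 genes above 20 FPKM. It had 25.5, 18.0 and 21.4 FPKM in the silenced libraries, against 0 in each parental library. The mean silenced levels of POX_d05366, POX_h09744 and POX_b03292 were 38.5 ± 12.9, 36.0 ± 9.14 and 21.6 ± 3.78 FPKM (SD, n = 3). POX_d05366 and POX_h09744 do not differ beyond this spread.

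Listed values of 0 divided the set further. Beside POX_g08982, POX_d06004, POX_c04430 and POX_b03292, the genes POX_g08675, POX_e06830 and POX_c04625 were listed at 0 in all 3 parental libraries. POX_e06830 had 9.97, 8.47 and 8.84 FPKM in the silenced libraries. POX_c04625 had 5.48, 8.0 and 5.32 FPKM there. These 7 genes were part of a much larger group, since 729 tags were listed at 0 in each parental library.

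A further 3 genes were listed at 0 in 2 parental libraries and 5 in 1 of them. POX_e06369 on chromosome V, listed at 0 in 2 of them, was at 5.37, 4.03 and 5.37 FPKM in the silenced libraries, against 0, 0 and 0.03 FPKM in the parental libraries. In the 19 genes above 0 in all parental libraries, the ratio of means had a median of 16.5 and a lowest value of 7.08, that of POX_f07336. Whether a listed 0 means no transcript or too few fragments was not tested.

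The limits fell inside a continuous range of values. Just inside the limit of 3 FPKM were POX_f07336, POX_g09297 and POX_f08197, with lowest silenced values of 3.02, 3.26 and 3.56 FPKM. Just outside it were POX_f07359, POX_f07755 and POX_e07145, at 2.93, 2.70 and 2.69 FPKM. At the parental limit of 1 FPKM, POX_f08354, POX_d05234 and POX_a00516 lay inside, with highest parental values of 0.97, 0.94 and 0.93 FPKM. POX_a00697, POX_f08342 and POX_c03919 lay outside, at 1.06, 1.07 and 1.07 FPKM. POX_a00697 would otherwise rank among the highest, at 26.9, 22.6 and 24.7 FPKM in the silenced libraries, against 0.65, 0.27 and 1.06 FPKM in the parental libraries.

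Most genes that were near silent in the parental strain stayed so in the silenced strain. Of the 1244 tags below 1 FPKM in each parental library, 1020 were also below 1 FPKM in each silenced library, and 598 of these were listed at 0 in all 6 libraries. A level of 3 FPKM was reached in no silenced library by 1148 tags, in 1 library by 42, in 2 by 20 and in all 3 by the 34 genes described here. The opposite pattern, below 1 FPKM in each silenced library and at 3 FPKM or more in each parental library, was met by 12 tags.

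The selection also fixes how the set fares in a test across all IDs. All 34 genes passed the filter on low values, which they could do through the silenced libraries alone, and all 34 were called higher in limma at an adjusted p under 0.05. Of all 9341 tested IDs, 24.4% were called higher and 54.8% in either direction. All 34 had groups that did not overlap in the higher direction, as had 29.2% of all tested IDs. Nothing is read from either count, because the same values chose the genes.

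Replicate spread within the silenced group differed widely from gene to gene. The CV over the 3 silenced libraries had a median of 16.6%, lay under 15% in 14 genes and exceeded 30% in 8. POX_h09831 on chromosome VIII was the tightest, at 6.74, 6.88 and 6.44 FPKM, a CV of 3.36%, against 0, 0.05 and 0.12 FPKM in the parental libraries. POX_g08675 on chromosome VII was the loosest, at 5.48, 12.0 and 26.6 FPKM in silenced replicates 1, 2 and 3, a CV of 73.6%, against 0 in each parental library. Its level in the silenced strain is thus known only to within a 4.86-fold range.

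In each band of levels the median CV of the switched-on genes was above that of other locus tags. It was 15.2% against 13% for the 240 other tags with means of 3 to 5 FPKM, and 18.6% against 13.8% for the 772 others between 5 and 10 FPKM. Between 10 and 20 FPKM it was 19.3% against 11.5% for 1219 others, and from 20 FPKM up to the highest switched-on gene 21.5% against 8.54% for 4426 others. The other tags also had at least 3 FPKM in each silenced library. These medians are a description without a test, and the highest band rests on 6 switched-on genes. In that band all but POX_g08982 had means of 21.6 to 45.4 FPKM, whereas the other tags could lie anywhere up to 222 FPKM. Levels were thus not matched within it.

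**Figure D2:**
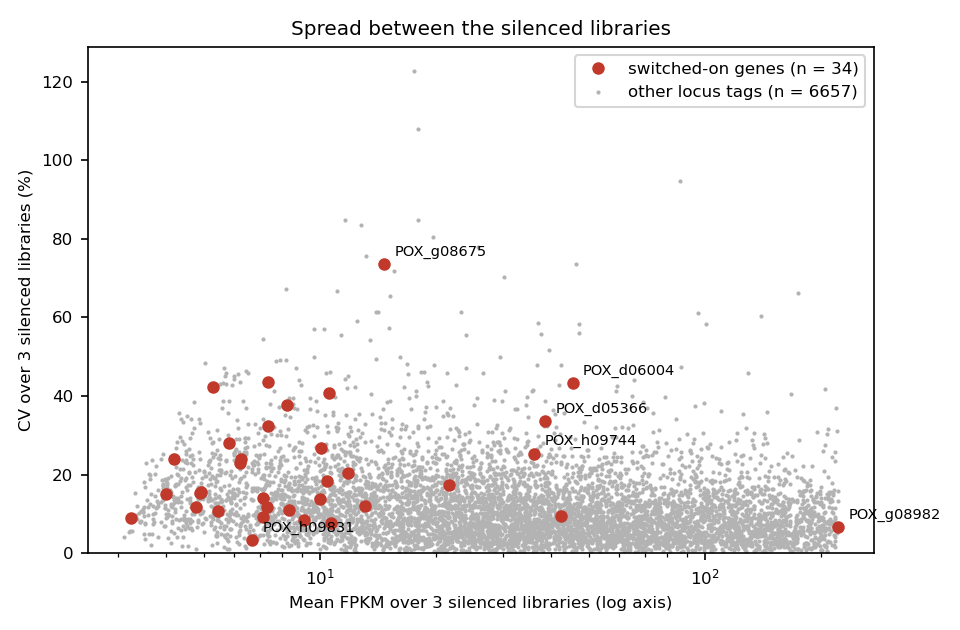
CV over the 3 silenced libraries (%) against mean silenced FPKM (log axis) for the 34 switched-on genes (large red points) and 6657 other locus tags with at least 3 FPKM in each silenced library and a mean no higher than that of the highest switched-on gene (small grey points). POX_g08675 lies at 73.6%, whereas POX_h09831 and POX_g08982 lie at 3.36% and 6.66%.

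The highest silenced value fell in replicate 3 for 17 genes, in replicate 1 for 12 and in replicate 2 for 5. These are 50%, 35.3% and 14.7% of the set, beside 60.4%, 22.9% and 16.7% of the other tags in the same range of levels. When any 1 library was left out and the same limits were applied to the other 5, all 34 genes remained and 4 to 14 more entered, a total of 38 to 48. Leaving out a library can only relax the limits, so this is how the setting is built.

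By tag number the 34 genes were scattered over all 8 chromosomes. Chromosome VII held 7 of them among its 840 tags (0.833%), and chromosomes IV and V held 6 each, of 1348 and 1169 tags. Chromosome VI held 5, chromosomes I and III 3 each, and chromosomes II and VIII 2 each. Chromosome I, with 1918 tags the richest, therefore had 0.156% of its tags in the set. As a share of the tags near silent in the parental strain, the set took 7.45% on chromosome VII and 1.38% on chromosome I.

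Few of the genes were close to each other. Along a chromosome, successive members of the set were a median of 161 tag numbers apart, with a range of 1 to 946. Only 4 had another member within 3 tag numbers, namely POX_g09297 with POX_g09298 and POX_d06016 with POX_d06019. At a distance of 10 tag numbers POX_g09206 and POX_g09214 joined them, which made 6. Within 20 tag numbers the count of members with another member rose to 11. With the blocks on chromosome III left out by the rule, the set was thus largely one of single genes at distances up to 10 tag numbers. It was less clearly so at 20.

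POX_g09297 and POX_g09298 on chromosome VII were the only direct neighbours. POX_g09297 had 3.26, 4.08 and 5.27 FPKM in the silenced libraries, against 0.24, 0.44 and 0.75 FPKM in the parental libraries. POX_g09298 had 7.35, 8.44 and 9.17 FPKM in the silenced libraries, against 0.13, 0.22 and 0.49 FPKM in the parental libraries. In both genes and both strains, replicate 1 was the lowest and replicate 3 the highest.

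The genes that flank this pair were tested, since their own values did not enter the selection. POX_g09299 was higher, at 11.2 ± 1.26 FPKM in the silenced and 3.53 ± 0.45 FPKM in the parental libraries (SD, n = 3), and its difference was 1.43 ± 0.16 (SE) on the log2 scale. POX_g09300, at 841 ± 26.3 against 478 ± 85.0 FPKM, was also called higher in limma. On the other side, POX_g09296 was too low to be tested, at 0.21, 0.31 and 0.38 FPKM in the silenced libraries, against 0, 0.02 and 0.03 FPKM in the parental libraries. POX_g09295 was not called, and its parental values ranged from 20.6 to 165 FPKM. Without parental replicate 2 it passed, at a log2 fold change of 2.03.

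The other pair, on chromosome IV, had POX_d06017 and POX_d06018 between its genes. Both missed the set because their parental values were not all below 1 FPKM. POX_d06016 had 12.8, 13.7 and 9.11 FPKM in the silenced libraries, against 0.60, 0.18 and 0.22 FPKM in the parental libraries. POX_d06019 had 7.6, 6.33 and 4.74 FPKM in the silenced libraries, against 0.34, 0.65 and 0.64 FPKM in the parental libraries. Silenced replicate 3 was the lowest in both genes.

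Between them, POX_d06018 was already transcribed in the parental strain and was higher in the silenced one, at 51.1 ± 7.46 against 22.3 ± 1.43 FPKM (SD, n = 3; log2 fold change 1.15 ± 0.14, SE). POX_d06017 was not called, with parental values of 0.14, 7.51 and 5.46 FPKM, and passed without parental replicate 1 or 2, at 0.70 and 2.15 on the log2 scale. POX_d06020, directly beyond the pair, was lower, at 33.1 ± 2.74 against 99.6 ± 26.6 FPKM, and the tag after it, POX_d06021, was higher, at 57.8 ± 14.2 against 26.2 ± 7.94 FPKM. POX_d06013, 3 tags before the pair and chosen after its values were seen, was at 55.6, 45.3 and 39.1 FPKM in the silenced libraries, against 1.54, 1.28 and 0.72 FPKM in the parental libraries. It missed the set only by its parental level, and its log2 fold change was 4.46 ± 0.21 (SE; limma adjusted p = 9.1e-05).

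Many of the tags beside the switched-on genes were higher too. Within 2 tag numbers on either side lay 125 other tags, of which 97 passed the filter on low values. In limma 49 of these were called higher (50.5%), 22 lower (22.7%) and 26 were not called. Of all 9341 tested IDs, 24.4% were called higher and 30.4% lower, and of the 8468 tested locus tags alone 25.6% and 30%. Of the 49, 4 were below 1 FPKM in each parental library and had passed the filter through the silenced libraries alone, namely POX_e07145, POX_e07328, POX_e07330 and POX_e07331. Others of the 49 had 1 FPKM or more in some but not all parental libraries, so they too passed only with the silenced libraries. POX_c04605, for example, had parental values of 1.26, 0.58 and 0 FPKM. Of the 22, 1 had passed through the parental libraries alone. Genes that passed only with the help of the group where they were higher were not counted further in either direction. With a filter at a mean of 5 FPKM, 39 of 84 neighbours were higher (46.4%), beside 26% of all tested IDs. The median log2 fold change of the 97 neighbours was 0.72, beside -0.12 over all tested IDs.

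Larger changes were counted in the same way. A log2 fold change of at least 1 in the higher direction was found in 34 of the 97 neighbours (35.1%), beside 14.7% of all tested IDs. These 34 include POX_e07145, POX_e07328, POX_e07330 and POX_e07331, at 1.29 to 1.74, which had passed the filter through the silenced libraries alone. In the lower direction a change of that size was found in 7 of them (7.22%), beside 15.4% of all tested IDs. Within 5 tag numbers, where 240 neighbours were tested, 41.7% were called higher and 23.3% lower, beside 24.4% and 30.4% of all tested IDs. The 240 include the 97, and tags beyond 2 tag numbers were not counted by themselves. Under the alternatives of pseudocount, filter, scaling and replicate block and without any 1 library, 41.5% to 52.1% of the tested neighbours were higher, beside 17.5% to 28.2% of all tested IDs. Scaling by the median of ratios gave 50 of 97 neighbours higher and 21 lower, beside 28.2% and 26% of all tested IDs. With this scaling more IDs were thus called higher than lower, unlike in the main fit. Library preparation was not stated to keep strand, so fragments of overlapping neighbours could not be assigned to one of them, and their part in these counts was not tested.

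**Figure D3:**
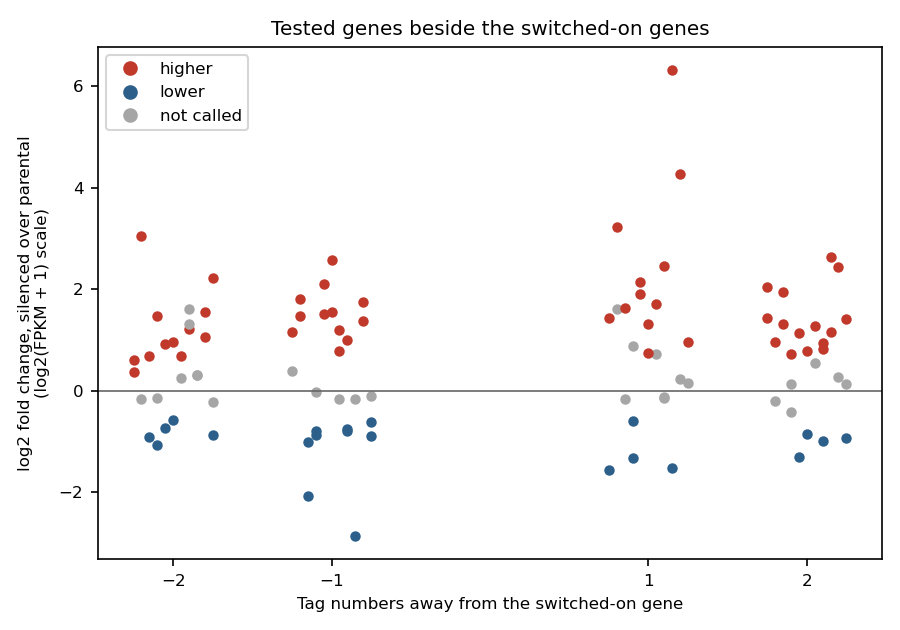
Log2 fold change, silenced over parental on the log2(FPKM + 1) scale, of the 97 tested genes within 2 tag numbers of a switched-on gene, by distance in tag numbers. Red points were called higher (49 genes), blue points lower (22) and grey points were not called (26); a gene beside more than 1 switched-on gene is drawn at each distance.

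Among the 33 switched-on genes with a tested neighbour, 19 had more neighbours higher than lower, 7 had more lower than higher and 7 had equal numbers. In 8 cases every tested neighbour was higher, and in 6 cases none was. The 8 include POX_e07329, whose neighbours POX_e07328, POX_e07330 and POX_e07331 had passed the filter through the silenced libraries alone. Few neighbours stand behind each case: POX_c04625 had 1 tested, and POX_g08982, POX_g09206 and POX_g09298 had 2 each. Counts of this kind are not given for other genes. The neighbourhoods thus ranged from those with all tested neighbours higher to single genes set among steady or lower ones.

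POX_g08982 had very different tags on its sides. Next to it, POX_g08983 was at 2736, 2613 and 2253 FPKM in the silenced libraries, against 25.7, 46.2 and 24.5 FPKM in the parental libraries. POX_g08984 and POX_g08985 were also higher, by log2 fold changes of 2.63 ± 0.15 and 1.2 ± 0.15 (SE). On its other side POX_g08981 and POX_g08980 stayed below 1 FPKM in all 6 libraries. Beyond these, POX_g08979 was lower, at 70.4 ± 12.7 against 108 ± 4.58 FPKM, and POX_g08978 higher, at 902 ± 138 against 208 ± 49.5 FPKM (SD, n = 3). The call of POX_g08979 was lost without silenced replicate 1 or 2.

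POX_e07329, 3 genes from the end of chromosome V if the last is counted as 1, belonged to a run of low genes that reached the last tag. It had 7.53, 9.80 and 12.9 FPKM in the silenced libraries, against 0, 0.06 and 0.10 FPKM in the parental libraries. POX_e07328 beside it was at 2.12, 2.01 and 3.31 FPKM in the silenced libraries, against 0, 0.08 and 0 FPKM in the parental libraries. POX_e07330 was at 2.07, 2.69 and 3.44 FPKM in the silenced libraries, against 0, 0.05 and 0.36 FPKM in the parental libraries. POX_e07331, the last tag, was at 1.10, 1.46 and 1.81 FPKM in the silenced libraries and listed at 0 in each parental library.

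These 3 neighbours passed the filter on low values through the silenced libraries alone, so the limma calls of higher that they received add nothing to their values. They missed the set only because their silenced levels were under 3 FPKM in at least 1 library. POX_e07327 was higher as well, at 10.5 ± 2.74 against 4.50 ± 1.60 FPKM (SD, n = 3), but did not pass without silenced replicate 2 or 3. POX_e07326, at 62.8 ± 8.43 against 74.8 ± 14.1 FPKM, was not called.

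Some of the set lay near chromosome ends. Of the 33 switched-on genes placed in the gene table, 5 lay within 20 genes of a chromosome end (15.2%). The share was 3.28% of the 9705 placed tags and 5.77% of the 1196 placed tags that were near silent in the parental strain. These 5 were POX_e06171 and POX_e07329 on chromosome V, POX_f07336 and POX_f07351 on chromosome VI, and POX_g08531 on chromosome VII. The distance of 20 genes was chosen after the values were seen, no test was made, and 5 genes are few.

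POX_f07351, near one end of chromosome VI, had both higher and lower neighbours. It had 3.67, 4.39 and 7.86 FPKM in the silenced libraries, against 0, 0.29 and 0 FPKM in the parental libraries. Within 2 tags of it, POX_f07350, POX_f07352 and POX_f07353 were called higher in limma and POX_f07349 lower, at 0.96 ± 0.13 against 1.91 ± 0.40 FPKM (SD, n = 3). The call of POX_f07349 was lost whichever of the 6 libraries was left out. Further on, POX_f07354 at 14.2 ± 1.64 against 1.70 ± 0.78 FPKM and POX_f07356 at 20.4 ± 3.06 against 2.76 ± 1.26 FPKM were higher, and both were picked with the values in view. POX_f07336, nearer the same end, had 3.02, 3.56 and 3.12 FPKM in the silenced libraries, against 0.85, 0.25 and 0.27 FPKM in the parental libraries, and none of its neighbours was tested.

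Neighbours that were all higher flanked POX_f08197 and POX_d06004. POX_f08197 on chromosome VI was itself low, at 3.56, 3.76 and 4.69 FPKM in the silenced libraries, against 0, 0.11 and 0.41 FPKM in the parental libraries. Beside it, POX_f08195 was at 473 ± 23.8 against 56.7 ± 10.1 FPKM and POX_f08196 at 205 ± 13.5 against 58.2 ± 5.01 FPKM (SD, n = 3). POX_f08198 and POX_f08199 were higher by 1.33 and 0.78 on the log2 scale, the second of which did not pass without silenced replicate 2 or parental replicate 3. Around POX_d06004, the tags POX_d06002, POX_d06003, POX_d06005 and POX_d06006 had log2 fold changes of 0.93, 1.52, 0.74 and 0.96. These 4 genes had 12.4 to 60.1 FPKM on average in the parental libraries, whereas POX_d06004 was listed at 0 there.

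On chromosome III, POX_c04607 and POX_c04625 lay 18 tags apart, each beside other low genes that were higher. POX_c04607 had 4.40, 4.54 and 5.77 FPKM in the silenced libraries, against 0.83, 0.34 and 0.28 FPKM in the parental libraries. POX_c04605 and POX_c04606 next to it were at 3.48 ± 0.45 and 3.70 ± 0.44 FPKM in the silenced libraries, against 0.61 ± 0.63 and 0.89 ± 0.73 FPKM in the parental libraries (SD, n = 3). POX_c04624, beside POX_c04625, was at 14.5 ± 2.95 against 1.56 ± 0.23 FPKM. POX_c04609 was not called, and no other neighbour of POX_c04625 passed the filter.

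Large increases of an already transcribed neighbour occurred beside low switched-on genes too. POX_d04973 on chromosome IV reached 4.63, 5.17 and 7.71 FPKM in the silenced libraries, against 0.21, 0.14 and 0.90 FPKM in the parental libraries. The adjoining POX_d04974 was at 1150 ± 28.5 against 59.2 ± 10.6 FPKM (SD, n = 3; log2 fold change 4.27 ± 0.16, SE). POX_f08354 on chromosome VI, at 11.1, 10.5 and 8.47 FPKM in the silenced libraries, against 0.40, 0.97 and 0.67 FPKM in the parental libraries, stood between opposite changes. POX_f08355 was higher, at 202 ± 18.1 against 23.0 ± 11.8 FPKM, and POX_f08353 lower, at 4.62 ± 0.65 against 40.2 ± 9.86 FPKM. POX_d04974, POX_f08355 and POX_f08353 are named after their values were seen.

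Other switched-on genes lay among tested neighbours that were mostly lower or not called. POX_c04430 had 4 tested neighbours at group means of 50.9 to 207 FPKM, of which POX_c04428 was higher, POX_c04429 lower and POX_c04431 and POX_c04432 not called. POX_d05366 lay between POX_d05365, at 78.7 ± 1.67 against 88.1 ± 10.1 FPKM and not called, and POX_d05368, which was lower at 28.3 ± 8.02 against 50.3 ± 3.98 FPKM (SD, n = 3). The call of POX_d05368 was lost without silenced replicate 2.

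POX_h09831 and POX_e06369 had no neighbour that was higher. Beside POX_h09831, POX_h09829, POX_h09832 and POX_h09833 were lower by log2 fold changes of -0.88, -0.60 and -0.92, and POX_h09832 did not pass in 4 of the 6 fits without 1 library. Beside POX_e06369, POX_e06370 was lower at 17.7 ± 0.23 against 54.4 ± 5.90 FPKM and POX_e06371 at 32.5 ± 2.29 against 66.0 ± 12.7 FPKM (SD, n = 3). POX_e06830, listed at 0 in the parental libraries, stood between opposite changes. POX_e06831 was lower, at 25.8 ± 3.83 against 65.5 ± 8.59 FPKM, and POX_e06829 higher, at 922 ± 12.3 against 537 ± 53.4 FPKM (SD, n = 3).

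**Figure D4:**
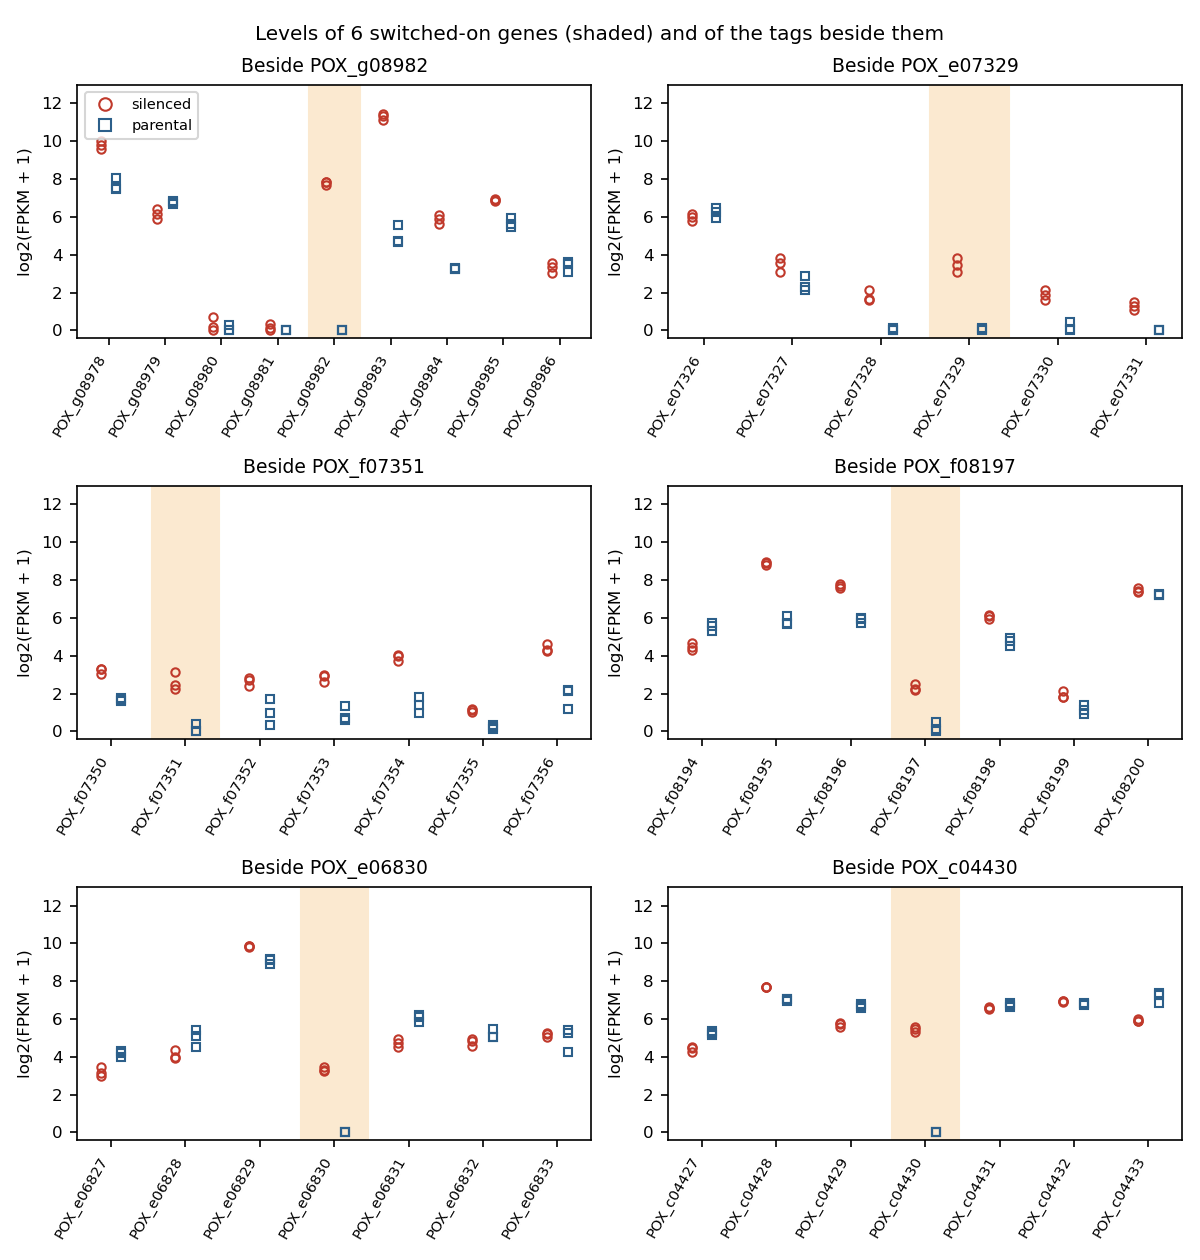
Levels on the log2(FPKM + 1) scale of 6 switched-on genes (shaded) and the tags beside them in 3 silenced libraries (circles, left) and 3 parental libraries (squares, right). The tags beside POX_e07329, POX_f07351 and POX_f08197 were mostly higher in the silenced libraries, whereas those beside POX_c04430 and POX_e06830 were higher, lower or not called.

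Neighbours of POX_h09744 and POX_b03292 were mixed. Of the 4 beside POX_h09744, POX_h09742 and POX_h09746 were higher, by 1.48 ± 0.34 and 0.73 ± 0.11 on the log2 scale (SE), POX_h09743 was lower and POX_h09745 was not called. POX_h09741, 3 tags away and chosen after its values were seen, was at 345 ± 19.7 against 16.6 ± 9.13 FPKM (SD, n = 3). Beside POX_b03292, POX_b03290 and POX_b03291 were higher, but POX_b03290 did not pass without silenced replicate 2 and POX_b03291 without silenced replicate 3. Over all 6 switched-on genes at 20 FPKM or more, 11 of 21 tested neighbours were higher, 3 lower and 7 not called. Of all 9341 tested IDs, 24.4% were called higher and 30.4% lower.

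Members not described by themselves above shared the general pattern of low silenced levels. POX_b02827 was the highest of them, at 14.9, 12.7 and 11.8 FPKM in the silenced libraries, against 0.64, 0.76 and 0.43 FPKM in the parental libraries. For POX_a01462, the only tested neighbour within 2 tags was POX_a01460, which was not called. It was at 28.8 ± 2.78 FPKM in the silenced and 32.2 ± 8.09 FPKM in the parental libraries (SD, n = 3). POX_a01461 and POX_a01464 were listed at 0 in all 6 libraries. POX_a01463, directly beside POX_a01462, was at 10.6 FPKM in parental replicate 2 and listed at 0 in the other 5. POX_a01462 had 12.6, 8.96 and 9.76 FPKM in the silenced libraries, against 0, 0.43 and 0.59 FPKM in the parental libraries. POX_e06171 was at 10.1, 10.4 and 11.7 FPKM in the silenced libraries, against 0.26, 0.89 and 0.67 FPKM in the parental libraries.

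POX_a00516, POX_f07406 and POX_g09214 were among the genes with a wide silenced range. POX_a00516 had 6.56, 9.98 and 15.1 FPKM in the silenced libraries, against 0.58, 0.41 and 0.93 FPKM in the parental libraries. POX_f07406 had 4.89, 6.22 and 11 FPKM there, against 0, 0 and 0.74 FPKM in the parental libraries. POX_g09214 had 5.10, 8.23 and 11.3 FPKM in the silenced libraries, against 0.48, 0.88 and 0.87 FPKM in the parental libraries. In these 3 genes the highest silenced value was in replicate 3 and the lowest in replicate 1.

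Steadier low members were POX_e06404, POX_e07143, POX_d05234 and POX_g09206. POX_e06404 had 6.61, 6.94 and 7.87 FPKM in the silenced libraries, against 0.36, 0.13 and 0 FPKM in the parental libraries. Beside it POX_e06405 was higher, at 107 ± 8.99 against 18.6 ± 0.64 FPKM, and POX_e06403 lower, at 51.8 ± 1.84 against 97.9 ± 22.4 FPKM (SD, n = 3). POX_e07143 had 4.77, 5.72 and 5.83 FPKM in the silenced libraries, against 0.29, 0.26 and 0.41 FPKM in the parental libraries, and adjoined POX_e07142, which was lower at 10.2 ± 1.2 against 46.0 ± 5.05 FPKM. The tag on the other side was not called. Beyond it POX_e07145, which had passed the filter through the silenced libraries alone, was called higher, at 2.87 ± 0.17 against 0.45 ± 0.18 FPKM.

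POX_d05234 had 8.32, 6.82 and 6.83 FPKM in the silenced libraries, against 0.70, 0.93 and 0.94 FPKM in the parental libraries. For POX_g09206 the values were 6.18, 8.20 and 7.04 FPKM in the silenced libraries, against 0.34, 0.23 and 0.72 FPKM in the parental libraries. POX_g08531, 4 genes from an end of chromosome VII, had 5.69, 6.25 and 10.1 FPKM in the silenced libraries, against 0.31, 0.42 and 0.52 FPKM in the parental libraries. Its neighbour POX_g08530 was at 1431 ± 136 against 390 ± 233 FPKM (SD, n = 3) and was called higher, while the tag before that was not called. The remaining member, POX_a00351 on chromosome I, had 5.26, 4.16 and 4.94 FPKM in the silenced libraries, against 0.28, 0.35 and 0.83 FPKM in the parental libraries.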

How the data were processed

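Messenger RNA of 3 silenced and 3 parental libraries was analysed. Each deposited file holds 1 library as FPKM, computed by the authors, per the file headers. Per the submitters' processing notes, bcl2fastq and HISAT2 were used, with no version stated. For the counter, the build and the annotation, the entry is not given in the sources used here. FPKM are divided by library size, so strong changes in abundant transcripts shift all other values of a library.

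A prefix on the locus tags of 1 parental library was removed before joining. Of 9822 tags, 9718 matched the RefSeq table of assembly ASM172317v3, including 33 of the 34 selected genes. It served for chromosome names and gene order alone, and protein sequences were not used here, so the planned paralog and protein comparisons were not made. The silenced against parental comparison used limma 3.58.1 (R 4.3.3), applied to log2(FPKM + 1) and with the variance trend on. An ID was tested when 3 or more libraries had 1 FPKM or more, and p-values were adjusted by Benjamini-Hochberg over all of them, with calls at an adjusted p under 0.05. The fit was run on simulated data with 200 changed genes. That is far fewer than the 5118 IDs called here, so it does not show how the fit fares with so many changes. Neighbours are tags within 2 tag numbers of a selected gene. P-values measure only the spread between these libraries.

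The members, gene lists and tests were chosen with earlier results of these data known. Genes named with values were the members, the target, the tags nearest to each limit and the neighbours of members at 20 FPKM or more or within 3 tag numbers of another member. Every other named gene was chosen after its values were seen. Alternatives were another pseudocount, filter, scaling, a replicate block, other limits and leaving out each library.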

Additional observations from a re-analysis of the deposited data

How the results depend on the processing

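The number of switched-on genes follows its limits: it was 16 with a parental limit of 0.5 FPKM, 66 with 2 FPKM, 53 with a silenced limit of 2 FPKM, 23 with 5 FPKM and 38 to 48 without 1 library. Members with another member within 3 tag numbers were 4, against 2 within 1 tag number and 4 to 9 without 1 library. The median CV was 15.8% to 19.3% and the median level 7.34 to 8.71 FPKM without 1 library. Neighbours called higher numbered 49 within 2 tags and 100 within 5, those called lower 22 and 56. Without 1 library 39 to 50 were higher and 16 to 20 lower. Replicate numbers were not taken as pairs, since deviations of same-numbered libraries correlated at 0.0014, 0.029 and 0.12 across genes and silenced replicate 1 correlated best with parental replicate 2 (0.13). A replicate block gave 4667 called IDs, against 5118 without it, and 49 higher and 20 lower neighbours. Without 1 library, 3603 to 5576 IDs were called. Over the 69 named genes outside the set, 772 values under an alternative kept direction and call, 29 lost the call and 4 gained one. The cause was not tested. The paralog alternatives were not run. FPKM without fragment numbers does not let counting error be separated from the spread between libraries.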

Other observations

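Among the 1077 IDs without a locus tag, 7 met the same limits as the switched-on genes. POX_f07335, beside the switched-on POX_f07336 and the third gene from an end of chromosome VI, was at 13.1, 18.8 and 0 FPKM in silenced replicates 1, 2 and 3, against 0 in each parental library. It was therefore outside the set and was not tested.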
